A study of Mus musculus with 2 samples.

Results

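The 8 genes described here encode the core of the β-catenin destruction complex and its substrate: Apc, Axin1 and Amer1 (scaffolds), Csnk1a1, Gsk3a and Gsk3b (kinases), Ctnnb1 (β-catenin) and Btrc (a receptor subunit of the ubiquitin ligase). They were taken by gene symbol from the 31053 genes in the count matrices of both libraries, and each symbol matched 1 gene. The cells were isolated from the proximal part of the small intestine. The animals, 2 APC mice, were Apc fl/fl and carried Villin-CreERT2. Both mice received 2 intraperitoneal doses of 2 mg tamoxifen, 24 h apart, and were sampled on day 4. All samples belong to this 1 group, and neither untreated mice nor mice with intact Apc were analysed here, so the cell classes are compared with each other within these mice. The Villin promoter drives the tamoxifen-activated Cre in intestinal epithelium, so epithelial cells can lose Apc function while leukocytes lie outside the tissue in which the Cre is made.

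In the absence of a Wnt signal, Axin and APC hold β-catenin beside its kinases. CK1α (Csnk1a1) primes β-catenin, GSK3 adds the phosphates that β-TrCP (Btrc) recognizes, and the ubiquitin ligase then marks the protein for the proteasome. AMER1 (WTX) recruits APC to the plasma membrane and binds the complex. In intestinal crypts Wnt ligands restrain this complex and keep stem cells dividing, and loss of Apc removes the restraint on β-catenin without a ligand. The readout was mRNA, so phosphorylation, complex assembly and β-catenin protein were not measured. A count from the 3′ end of Apc also does not tell a transcript with the floxed exon from one without it, and the level of Apc is therefore no check of the deletion.

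Droplet libraries (10x 3′ v3) count each captured molecule by a unique molecular identifier (UMI). The library of mouse 1 held 85670711 UMIs and that of mouse 2 held 38716743. After filtering on genes, UMIs, mitochondrial and haemoglobin content, 7941 and 6957 cells were kept, with medians of 4381 and 2803 UMIs. The libraries shared 24 barcodes, of which 16 were among kept cells. Most kept cells were leukocytes. T-cell- or ILC-like (innate lymphoid cell) clusters held 3105 and 5288 cells in mouse 1 and mouse 2, plasma-cell-like clusters 2229 and 608, macrophage- or monocyte-like 622 and 464, B-cell-like 390 and 93, and dendritic-cell-like 219 and 157. The epithelium was represented by 595 and 140 enterocyte-like, 116 and 30 TA-like (transit-amplifying) and 27 and 20 tuft-like cells. TA-like cells were led by Olfm4, a stem cell gene, and their summed stem cell markers stood at 1522 and 1946 CPM (UMIs of a gene over all UMIs of the class, scaled to the usual common total) against 351 and 476 CPM in enterocyte-like cells, so the class also carries stem cell expression. No cluster met the marker rule for Paneth-like, goblet-like or enteroendocrine-like cells. Summed pan-epithelial markers ranged from 1698 to 7726 CPM in the epithelial classes and from 12.8 to 295 CPM in the leukocyte classes. Pancreatic acinar markers reached 528 to 2789 CPM in the leukocyte classes of mouse 1 and 1.45 to 86.5 CPM in those of mouse 2. Cells of an acinar-like cluster, 193 in all, were seen in mouse 1 only. The part of such free RNA in the values below was not tested.

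All 8 genes were detected in both libraries. Over the kept cells of both mice, Apc gave 3221 UMIs, Axin1 1873, Amer1 639, Csnk1a1 20028, Gsk3a 4132, Gsk3b 11532, Ctnnb1 7476 and Btrc 985. Levels are given as CPM of the UMIs summed over all cells of a class in 1 mouse, and are compared between classes for the same gene, not between genes. The tuft-like sums held 51864 and 26923 UMIs, so a single UMI there is worth 19.3 and 37.1 CPM, and their values are given with counts. Plasma-cell-like cells spent 67.5% and 68.0% of their UMIs on immunoglobulin genes, which lowers the CPM of every other gene in them. For these cells the level over the remaining UMIs is given as well.

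**Figure D1:**
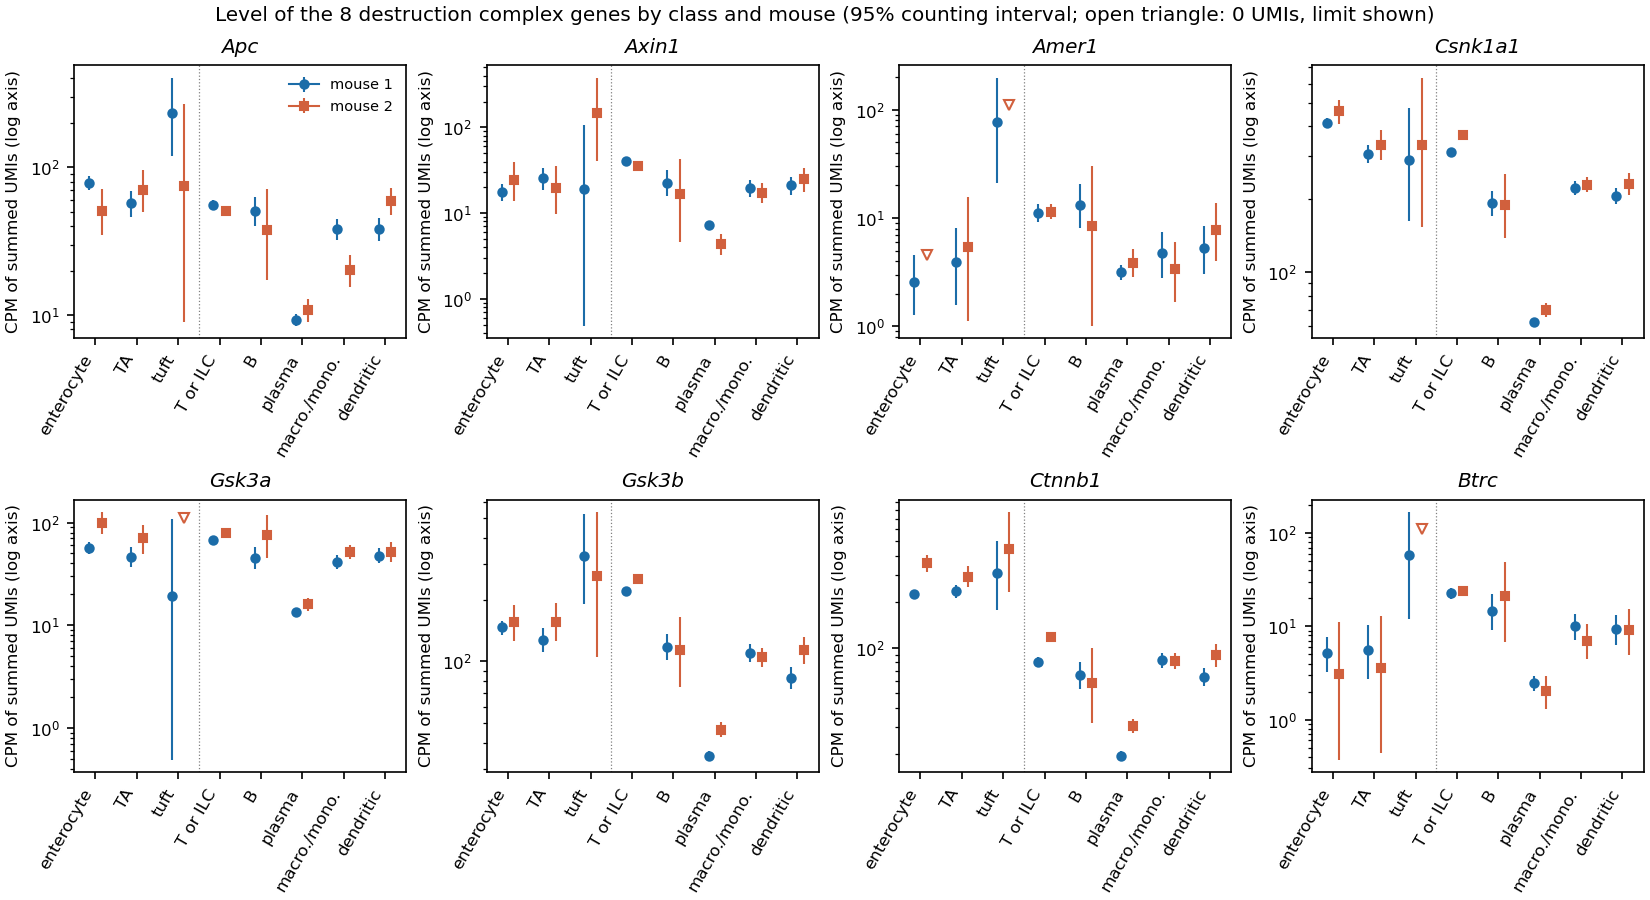
Level of each of the 8 genes in 8 cell classes, in CPM of summed UMIs on a log axis, for mouse 1 (circles) and mouse 2 (squares) with exact Poisson 95% intervals, which cover counting error only. Open triangles mark classes with 0 UMIs at the level that 3 UMIs would have, and the dotted line separates epithelial from leukocyte classes. Ctnnb1 is above 220 CPM in all epithelial points and below 120 CPM in all leukocyte points, while Btrc is below 6 CPM in enterocyte-like and TA-like cells and above 20 CPM in T-cell- or ILC-like cells.

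Ctnnb1, the substrate of the complex (chromosome 9, 120929216 to 120960507, plus strand, mm10), had the clearest epithelial pattern of the 8 genes. Enterocyte-like cells had 224 CPM in mouse 1 and 359 CPM in mouse 2, and the level was 235 and 293 CPM in TA-like cells. Tuft-like cells had 308 and 446 CPM, from 16 and 12 UMIs. Among the leukocyte classes drawn, the T-cell- or ILC-like was highest by mean, at 80.7 and 118 CPM. Neutrophil-like cells, only 19 and 9 in number, had 114 and 212 CPM, from 8 and 8 UMIs. Epithelial and leukocyte classes did not overlap in any mouse. Macrophage- or monocyte-like cells stood at 82.9 and 81.3 CPM, dendritic-cell-like cells at 64.5 and 89.1 CPM and B-cell-like cells at 65.9 and 58.8 CPM, and these neighbours overlapped each other. Plasma-cell-like cells were lowest at 19.5 and 30.5 CPM, a mean of 77.6 CPM when immunoglobulin UMIs were left out, which lies among the other leukocytes. Within the epithelium the range of 1 class covered the next, so no order of enterocyte-like, TA-like and tuft-like cells can be read from these levels.

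Apc, the scaffold whose loss drives this model (chromosome 18, 34220924 to 34322552, plus strand), differed less between classes. Enterocyte-like cells had 78.5 and 50.6 CPM, TA-like cells 57.0 and 70.0 CPM, and T-cell- or ILC-like cells 55.9 and 50.7 CPM. In mouse 2 the enterocyte-like and T-cell- or ILC-like values were therefore the same to within 1 CPM. Dendritic-cell-like cells had 38.1 and 59.2 CPM and B-cell-like cells 50.6 and 37.8 CPM. Apc was lower in macrophage- or monocyte-like cells, at 38.2 and 20.1 CPM, and in plasma-cell-like cells, at 9.33 and 10.8 CPM or a mean of 31.2 CPM without immunoglobulin UMIs. The tuft-like values of 231 and 74.3 CPM rest on 12 and 2 UMIs. Apc UMIs were thus present at leukocyte-like levels or above in the epithelium, where the Cre is made.

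Axin1, the scaffold on which the kinases meet β-catenin (chromosome 17, 26138688 to 26195811, plus strand), had similar levels in most classes. T-cell- or ILC-like cells led with 40.1 and 35.0 CPM. The other classes, apart from plasma-cell-like and tuft-like cells, lay between 16.8 and 25.4 CPM: 17.5 and 24.5 CPM in enterocyte-like, 25.4 and 19.7 CPM in TA-like, 22.6 and 16.8 CPM in B-cell-like, 19.5 and 17.4 CPM in macrophage- or monocyte-like and 21.1 and 24.7 CPM in dendritic-cell-like cells. Enterocyte-like and B-cell-like cells overlapped each of the others, while macrophage- or monocyte-like cells lay below TA-like and dendritic-cell-like cells. Plasma-cell-like cells had 7.22 and 4.36 CPM, or a mean of 17.9 CPM without immunoglobulin UMIs. In tuft-like cells 1 and 4 UMIs gave 19.3 and 149 CPM, too few to place the class.

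Amer1 (chromosome X, 95420318 to 95444872, minus strand) had the fewest UMIs of the 8 genes and was higher in T-cell- or ILC-like than in enterocyte-like cells. T-cell- or ILC-like cells had 11.2 and 11.5 CPM. B-cell-like cells had 13.3 and 8.41 CPM, from 20 and 2 UMIs. Enterocyte-like cells had 2.57 CPM in mouse 1, from 11 UMIs, and 0 UMIs in mouse 2, where up to 4.60 CPM cannot be told from 0. TA-like cells stood at 3.95 and 5.39 CPM, from 7 and 3 UMIs. Macrophage- or monocyte-like cells (4.74 and 3.35 CPM), dendritic-cell-like cells (5.27 and 7.81 CPM) and plasma-cell-like cells (3.17 and 3.87 CPM) fell between, and the last rose to a mean of 10.9 CPM without immunoglobulin UMIs. The tuft-like cells had 4 UMIs in mouse 1 and 0 in mouse 2.

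Csnk1a1, which encodes CK1α, the priming kinase (chromosome 18, 61555274 to 61590061, plus strand), was highest in enterocyte-like cells, at 412 and 460 CPM. T-cell- or ILC-like cells followed at 314 and 368 CPM, with TA-like cells at 308 and 336 CPM and tuft-like cells at 289 and 334 CPM. The enterocyte-like values were above those of all other classes in both mice, whereas the next 3 classes overlapped. Macrophage- or monocyte-like (223 and 230 CPM), dendritic-cell-like (207 and 231 CPM) and B-cell-like cells (192 and 189 CPM) formed a lower group. Plasma-cell-like cells had 62.3 and 69.9 CPM, or a mean of 205 CPM without immunoglobulin UMIs, within that lower group.

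Gsk3b (chromosome 16, 38089001 to 38246084, plus strand) and Gsk3a (chromosome 7, 25228258 to 25237851, minus strand) encode the paralogous GSK3 kinases and did not share a pattern. Gsk3b was highest, apart from tuft-like cells, in T-cell- or ILC-like cells, at 220 and 253 CPM, with no overlap with the class below. Enterocyte-like cells had 146 and 155 CPM of Gsk3b and TA-like cells 127 and 156 CPM. B-cell-like cells followed at 118 and 113 CPM, macrophage- or monocyte-like cells at 109.98 and 104.79 CPM, dendritic-cell-like cells at 83.1 and 113 CPM and plasma-cell-like cells at 34.7 and 46.5 CPM, or 107 and 145 CPM without immunoglobulin UMIs. Gsk3a was highest by mean in enterocyte-like cells: 56.8 and 99.7 CPM in enterocyte-like, 68.2 and 79.9 CPM in T-cell- or ILC-like, 46.3 and 70.0 CPM in TA-like and 45.3 and 75.7 CPM in B-cell-like cells. Each of these ranges overlapped the next. Lower by mean were dendritic-cell-like cells at 47.7 and 52.0 CPM, macrophage- or monocyte-like cells at 41.3 and 51.8 CPM and plasma-cell-like cells at 13.5 and 15.97 CPM, the last at 41.5 and 49.9 CPM without immunoglobulin UMIs. The sum over both mice in tuft-like cells was 24 UMIs of Gsk3b and 1 UMI of Gsk3a, against shares elsewhere that are given further on.

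Btrc, the subunit that recognizes phosphorylated β-catenin (chromosome 19, 45363734 to 45530013, plus strand), was low in enterocyte-like and TA-like cells, where Ctnnb1 was high, and like Ctnnb1 stood lowest in plasma-cell-like cells. T-cell- or ILC-like cells had 22.7 and 23.7 CPM and B-cell-like cells 14.6 and 21.0 CPM. Enterocyte-like cells had 5.14 and 3.07 CPM, from 22 and 2 UMIs, and TA-like cells 5.65 and 3.59 CPM, from 10 and 2 UMIs. Both epithelial classes lay below every leukocyte class but the plasma-cell-like, which had 2.46 and 2.02 CPM, or a mean of 6.93 CPM without immunoglobulin UMIs. Macrophage- or monocyte-like cells (10.0 and 7.01 CPM) and dendritic-cell-like cells (9.30 and 9.11 CPM) were intermediate. Tuft-like cells had 3 UMIs in mouse 1 and 0 in mouse 2.

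Differences between classes were tested with edgeR's quasi-likelihood test on the 16 sums of 8 classes and 2 mice, with TMM scaling and Benjamini-Hochberg adjustment over all 12391 genes tested. All 8 members passed the filter on low counts. The mice are the replicates (n = 2 sums per class), and log2 differences are given ± their standard error, with p adjusted by the Benjamini-Hochberg method. In a joint test that all 8 class means are equal, 7 of the 8 members passed an adjusted p of 0.05, but so did 89.9% of all genes, and the members' count is near that background. Ctnnb1 had an adjusted p of 1.33e-06 and Csnk1a1 of 1.34e-05. Axin1 alone did not pass, with an adjusted p of 0.349, although it did so when library sizes were used without TMM factors (adjusted p = 7.78e-05).

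Scaling matters for all of these tests. TMM factors were 0.315 and 0.345 for plasma-cell-like sums, 0.768 and 0.907 for enterocyte-like, 1.21 and 1.28 for T-cell- or ILC-like and 2.03 and 2.57 for tuft-like sums, so fitted differences are not plain ratios of CPM. Without these factors the median log2 difference of all genes moved from -0.52 to 0.03 for the mean epithelial against the mean leukocyte class, from -0.13 to 0.21 for TA-like against enterocyte-like, from -0.15 to -0.78 for enterocyte-like against T-cell- or ILC-like, and, against the same T-cell- or ILC-like class, from -0.07 to -1.96 for plasma-cell-like, from -0.16 to -0.42 for B-cell-like and from -0.03 to -0.34 for macrophage- or monocyte-like cells. The split of genes called higher and lower moved with it: from 1960 and 3896 to 3059 and 2265 for the epithelial mean, from 1868 and 2866 to 2889 and 1921 for TA-like cells, and from 3918 and 4148 to 2976 and 5633 for enterocyte-like cells. Against T-cell- or ILC-like cells it moved from 2408 and 2753 to 662 and 9512 for plasma-cell-like, from 897 and 1094 to 753 and 1736 for B-cell-like, and from 2933 and 2711 to 2346 and 3998 for macrophage- or monocyte-like cells. The members' differences are therefore read beside these medians.

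The first comparison asks how the epithelium, where the Cre is made, differs from leukocytes of the same mice. The unweighted mean of the 3 epithelial classes was compared with that of the 5 leukocyte classes. Ctnnb1 was higher by 1.66 ± 0.15 on the log2 scale (adjusted p = 4.39e-07), Apc by 0.90 ± 0.25 (adjusted p = 0.00710) and Csnk1a1 by 0.34 ± 0.11 (adjusted p = 0.0197). These 3 of 8 members stand beside 15.8% of all genes called higher. No member was called lower by edgeR's test or by DESeq2, beside 31.4% of all genes, and 1 member was lower at an unadjusted p under 0.05, Gsk3a at -0.76 ± 0.32 (adjusted p = 0.0669). The median over the 8 members was 0.23, against -0.52 over all genes tested.

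The 27 and 20 tuft-like cells weigh as much in that mean as the enterocyte-like class, and the result changed when they were left out, an alternative chosen after the data were seen. Ctnnb1 (1.93 ± 0.14, adjusted p = 2.38e-08), Csnk1a1 (0.83 ± 0.11, adjusted p = 8.86e-06) and Apc (0.82 ± 0.22, adjusted p = 0.00407) stayed higher. Gsk3a reversed to 0.41 ± 0.16 (adjusted p = 0.0370). Amer1 fell by 1.26 (SE 0.39, adjusted p = 0.0105) and Btrc fell by 1.07 (SE 0.29, adjusted p = 0.00496) relative to leukocytes. Without tuft-like cells 4 members were thus higher and 2 lower, while the shares of all genes rose to 30.7% and 34.9%. The class was also not stable: no cluster was named tuft-like with mitochondrial UMIs under 10%, with no integration or at resolution 0.4. The Apc difference leaned on mouse 1: with tuft-like cells included it was 1.09 in mouse 1 alone and 0.42 in mouse 2 alone.

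**Figure D2:**
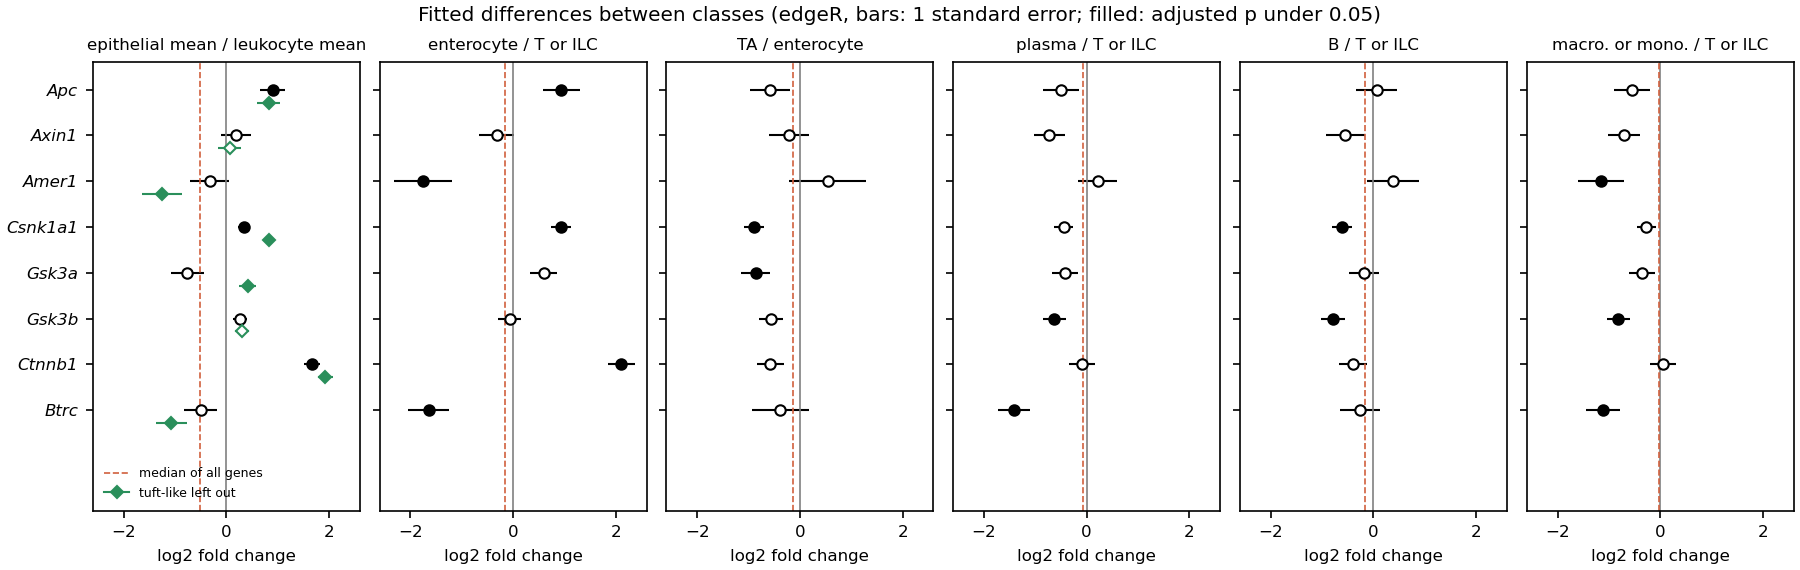
Fitted log2 differences of the 8 genes in 6 comparisons of classes (points, with bars of 1 standard error), filled where the adjusted p is under 0.05. The dashed line is the median of all genes tested, and diamonds in the first panel are the values without tuft-like cells. Ctnnb1 lies farthest to the right in the first 2 panels, at 1.66 and 2.11, and Btrc lies to the left, at -1.65, -1.41 and -1.12, against T-cell- or ILC-like cells in 3 panels.

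Enterocyte-like against T-cell- or ILC-like cells set the most numerous epithelial class beside the most numerous leukocyte class. Ctnnb1 was higher by 2.11 ± 0.26 (adjusted p = 6.34e-06), by 2.13 in mouse 1 alone and 2.10 in mouse 2 alone. Csnk1a1 was higher by 0.93 ± 0.19 (adjusted p = 0.000538) and Apc by 0.94 ± 0.36 (adjusted p = 0.0314). Btrc was lower at -1.65 ± 0.40 (adjusted p = 0.00213) and Amer1 at -1.76 ± 0.56 (adjusted p = 0.0128). The members called were 3 higher and 2 lower, beside 31.6% and 33.5% of all genes. Of 8 members, 3 and 2 are near what these shares give, so the counts are no result about the members, and the values are given gene by gene.

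These calls did not all rest on the same footing. The Apc difference was 1.15 in mouse 1 alone and 0.49 in mouse 2 alone. Without TMM factors, Apc was at 0.33 (adjusted p = 0.376) and Csnk1a1 at 0.35 (adjusted p = 0.0954), and neither passed, whereas Ctnnb1 (1.54, adjusted p = 0.000265), Btrc (-2.30, adjusted p = 9.02e-05) and Amer1 (-2.42, adjusted p = 0.00127) did. Amer1 was at -1.44 in mouse 1 alone and at -6.36 in mouse 2 alone, where it had 0 UMIs in enterocyte-like cells, so the latter is no bound. With the mouse as a block, Gsk3a was also higher, at 0.57 ± 0.19 (adjusted p = 0.0129), against 0.59 ± 0.26 (adjusted p = 0.0596) without it. Gsk3b (-0.07 ± 0.23) and Axin1 (-0.32 ± 0.34) did not pass, but without TMM factors both were lower, at -0.65 (adjusted p = 0.0148) and -0.93 (adjusted p = 0.0225). That scaling thus turned the split of members from 3 higher and 2 lower to 1 higher and 4 lower, beside 24.0% and 45.5% of all genes.

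TA-like against enterocyte-like cells compared crypt-type with villus-type epithelium. Both called members were lower in TA-like cells: Csnk1a1 at -0.89 ± 0.19 (adjusted p = 0.00194) and Gsk3a at -0.86 ± 0.28 (adjusted p = 0.0256). These 2 of 8 stand beside 23.1% of all genes called lower. Of members called higher there were 0 by edgeR's test, by DESeq2 and at an unadjusted p under 0.05, beside 15.1% of all genes. In each mouse alone Csnk1a1 was at -0.91 and -0.87 and Gsk3a at -0.78 and -0.93. With the mouse as a block, 4 members were lower, beside 26.3% of all genes, since Ctnnb1 (-0.56 ± 0.19, adjusted p = 0.0256) and Gsk3b (-0.57 ± 0.20, adjusted p = 0.0266) passed too. Without TMM factors 0 passed by edgeR's test, beside 38.8% of all genes called, and 1 had an unadjusted p under 0.05, Csnk1a1 at -0.44 (adjusted p = 0.0713). DESeq2 called Csnk1a1 alone, beside 24.4% of all genes with at least 1 UMI. Apc, at -0.58 ± 0.38 (adjusted p = 0.260), and Amer1, at 0.54 ± 0.75 on 10 and 11 UMIs, were not separated between these classes.

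Among leukocytes, T-cell- or ILC-like cells had the most Gsk3b. It was lower in plasma-cell-like cells at -0.63 ± 0.22 (adjusted p = 0.0329), in B-cell-like cells at -0.79 ± 0.24 (adjusted p = 0.0324) and in macrophage- or monocyte-like cells at -0.82 ± 0.22 (adjusted p = 0.00813). These 3 comparisons share the T-cell- or ILC-like sums and are not independent. Btrc was lower in plasma-cell-like cells at -1.41 ± 0.31 (adjusted p = 0.00218) and in macrophage- or monocyte-like cells at -1.12 ± 0.33 (adjusted p = 0.0125). In B-cell-like cells Btrc was at -0.26 ± 0.40 (adjusted p = 0.777).

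Csnk1a1 was lower in B-cell-like cells at -0.61 ± 0.19 (adjusted p = 0.0459). Both B-cell-like calls, Gsk3b and Csnk1a1, were lost with no filter on low counts (adjusted p = 0.0609 and 0.159), at resolution 1.2 (0.0591 and 0.0796), with the list genes kept in the clustering features (0.0584 and 0.0799) and with the shallow enterocyte cluster joined (0.0534 and 0.0747). Amer1 was lower in macrophage- or monocyte-like cells at -1.15 ± 0.45 (adjusted p = 0.0475). Members called lower were thus 2 of 8 for plasma-cell-like cells beside 22.2% of all genes, 2 of 8 for B-cell-like cells beside 8.83%, and 3 of 8 for macrophage- or monocyte-like cells beside 21.9%. No member was higher in these 3 comparisons by edgeR's test, by DESeq2 or at an unadjusted p under 0.05, beside 19.4%, 7.24% and 23.7% of all genes. For plasma-cell-like cells the count of 2 is near the background. It rose to 8 without TMM factors, beside 76.8% of all genes called lower, and the direction of Amer1 turned from 0.21 to -1.70. With the mouse as a block, Axin1 (-0.73 ± 0.23, adjusted p = 0.0123) and Csnk1a1 (-0.45 ± 0.17, adjusted p = 0.0302) were also lower in plasma-cell-like cells, and Axin1 (-0.71 ± 0.25, adjusted p = 0.0216) in macrophage- or monocyte-like cells. Ctnnb1 did not pass in any of the 3 leukocyte comparisons, with values of -0.08 ± 0.25, -0.39 ± 0.28 and 0.05 ± 0.26 in the order of the classes above.

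Several members have a paralogue that can take the same place in the complex, and the share of each gene within such a pair does not depend on the total UMIs of a class. Axin2 is a scaffold like Axin1 and also a Wnt target gene. Axin1 made up 15.9% and 20.5% of the UMIs of both Axin genes in enterocyte-like cells, and 17.8% and 11.8% in TA-like cells. In T-cell- or ILC-like cells its share was 78.9% and 83.1%, and in the other leukocyte classes it was 90.5% or more. Epithelial and leukocyte shares did not overlap, and the exact 95% binomial interval of the highest epithelial value with over 50 UMIs, enterocyte-like cells of mouse 2, ended at 31.2%. The UMIs of the pair were therefore mostly from Axin2 in epithelium and mostly from Axin1 in leukocytes. As levels are not compared between genes, only the change of this share between classes is read. The level of Axin1 itself in enterocyte-like cells overlapped that of B-cell-like, macrophage- or monocyte-like and dendritic-cell-like cells. Axin2 stood at 92.8 and 95.1 CPM in enterocyte-like cells, 117 and 147 CPM in TA-like cells and 10.7 and 7.12 CPM in T-cell- or ILC-like cells. It was higher in enterocyte-like than in T-cell- or ILC-like cells by 3.98 ± 0.49 (adjusted p = 7.54e-06), and TA-like and enterocyte-like cells did not differ detectably (0.01 ± 0.45).

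Fbxw11 encodes the other β-TrCP protein. Btrc made up 14.3% (22 of 154 UMIs) and 6.90% (2 of 29 UMIs) of both in enterocyte-like cells, against 50.1% and 44.5% in T-cell- or ILC-like cells, 36.5% and 27.8% in plasma-cell-like cells and 29% and 21.1% in macrophage- or monocyte-like cells. TA-like cells had shares of 30.3% and 11.8%, whose intervals reached 48.7% and 36.4%. Fbxw11 itself was higher in enterocyte-like than in T-cell- or ILC-like cells by 1.01 ± 0.26 (adjusted p = 0.00343; 0.40, adjusted p = 0.231 without TMM factors) and fell by 1.43 (SE 0.32, adjusted p = 0.00256) from enterocyte-like to TA-like cells. The low Btrc of enterocyte-like cells was accordingly accompanied by more, not less, of its paralogue on the scale of the test, at 30.8 and 41.4 CPM against 22.6 and 29.6 CPM in T-cell- or ILC-like cells.

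Jup encodes plakoglobin, the junctional relative of β-catenin. Ctnnb1 took 76.1% and 79.6% of the UMIs of this pair in enterocyte-like cells and 97.4% and 99.4% in T-cell- or ILC-like cells. Among leukocytes its share was lowest in dendritic-cell-like cells, at 68.6% and 85.1%, and macrophage- or monocyte-like cells had 87.7% and 92.7%. Jup was higher in enterocyte-like than in T-cell- or ILC-like cells by 6.39 ± 0.56 (adjusted p = 1.69e-07), on a T-cell- or ILC-like level of 2.14 and 0.739 CPM. The GSK3 pair behaved differently from the other 3: Gsk3b held 76.3% and 76.0% in T-cell- or ILC-like and 72.0% and 60.8% in enterocyte-like cells, with 60% to 74.4% in TA-like cells and the other leukocytes. Tuft-like cells had 17 of 18 and 7 of 7 UMIs from Gsk3b, with intervals that start at 72.7% and 59.0%.

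**Figure D3:**
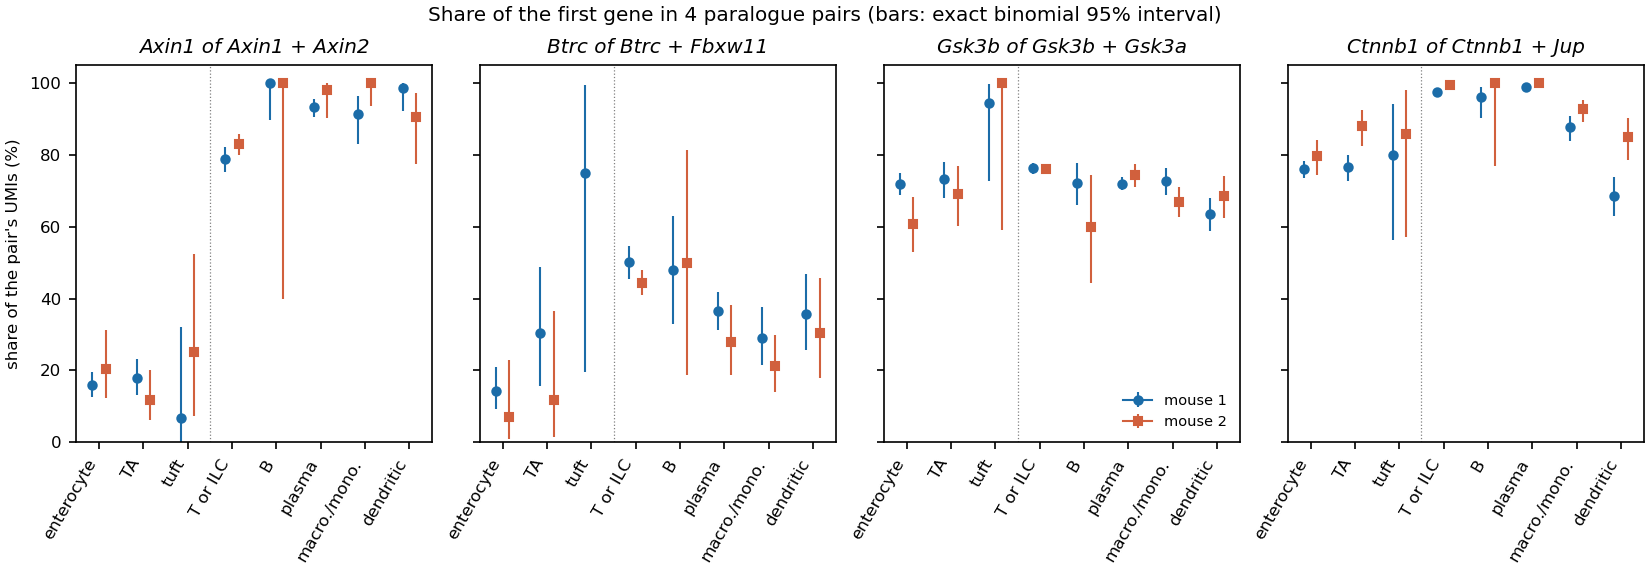
Share of the first gene in the UMIs of 4 paralogue pairs (percent) by class, for mouse 1 (circles) and mouse 2 (squares) with exact binomial 95% intervals. The share of Axin1 is at or below 25.0% in the epithelial classes left of the dotted line and at or above 78.9% to its right, whereas the share of Gsk3b outside tuft-like cells stays between 60% and 76.3%.

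Of the 11 paralogues of the members, 8 were tested, and Apc2, Amer2 and Amer3 did not pass the filter on low counts. Between enterocyte-like and T-cell- or ILC-like cells 4 were higher and 2 lower (median 0.29), a split that turned to 2 higher and 4 lower without TMM factors (median -0.31), where Fbxw11 (0.40, adjusted p = 0.231) and Csnk1g3 (0.41, adjusted p = 0.127) no longer passed. These counts stand beside 31.6% of all genes higher and 33.5% lower, and 24.0% and 45.5% without TMM factors. They are no result about the paralogues as a list, and the values are given gene by gene. Besides Axin2, Jup and Fbxw11, the casein kinase Csnk1g3 was higher at 1.00 ± 0.26 (adjusted p = 0.00344). Csnk1e was lower at -2.45 ± 0.53 (adjusted p = 0.000927) and Csnk1d at -0.60 ± 0.24 (adjusted p = 0.0400). Csnk1d and Csnk1e encode CK1δ and CK1ε, which act on Dishevelled and other Wnt proteins. Csnk1e had 16 and 1 UMIs in enterocyte-like cells, or 3.74 and 1.53 CPM, against 38.4 and 28.7 CPM in TA-like cells, and the difference from T-cell- or ILC-like cells was -2.21 in mouse 1 alone and -3.70 in mouse 2 alone. The difference from enterocyte-like to TA-like cells was 2.87 ± 0.57 (adjusted p = 0.00109), opposite in sign to that of Csnk1a1. Csnk1g1 (-0.88 ± 0.25, adjusted p = 0.0123), Csnk1g3 (-1.29 ± 0.28, adjusted p = 0.00204) and Fbxw11 were lower in TA-like cells. Csnk1g2 differed in neither comparison, at -0.42 ± 0.23 and -0.06 ± 0.24. In the mean of the epithelial against the leukocyte classes Axin2 (7.35 ± 0.46) and Jup (4.21 ± 0.62) were higher and Csnk1e lower (-1.16 ± 0.31, adjusted p = 0.00600), the last at -0.60 without TMM factors (adjusted p = 0.139), at -0.66 in mouse 1 alone and at -4.68 in mouse 2 alone, where tuft-like cells had 0 UMIs of it. Axin2 had 0 UMIs in B-cell-like cells, so that fitted value depends on the prior count and is no bound.

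The enzymes and receptors around the complex were followed in 4 further lists. Shares of all genes called higher and lower were 15.8% and 31.4% in the epithelial mean. They were 30.7% and 34.9% there without tuft-like cells and 24.7% and 18.3% without TMM factors. For enterocyte-like against T-cell- or ILC-like cells they were 31.6% and 33.5% (24.0% and 45.5% without TMM factors). For TA-like against enterocyte-like cells they were 15.1% and 23.1% (23.3% and 15.5% without TMM factors). List counts near these shares are no result about a list. Of 11 tested genes of the ubiquitin ligase and of Axin turnover, 2 were higher and 4 lower in the epithelial mean (list median -0.05), and 4 higher and 3 lower in enterocyte-like against T-cell- or ILC-like cells (median 0.43). These splits did not hold: the first became 6 higher and 3 lower without tuft-like cells (median 0.31), while without TMM factors 5 were higher and the rest did not pass (median 0.55), and the second became 2 higher and 5 lower without TMM factors (median -0.17). Skp1a, the adaptor that ties β-TrCP to the ligase, was higher in the epithelial mean by 1.74 ± 0.16 (adjusted p = 6.22e-07), with 623 and 775 CPM in enterocyte-like and 111 and 121 CPM in T-cell- or ILC-like cells. It fell by 1.10 (SE 0.25, adjusted p = 0.00259) from enterocyte-like to TA-like cells, as did Rnf146, the ubiquitin ligase that clears Axin, by 0.86 (SE 0.29, adjusted p = 0.0289), and neither passed without TMM factors (adjusted p = 0.0659 and 0.301). Usp7, a deubiquitinase, was lower in the epithelial mean at -0.84 ± 0.18 (adjusted p = 0.00120), and at -0.27 without TMM factors (adjusted p = 0.405). Cul1, the cullin of the ligase, was at -0.83 ± 0.30 (adjusted p = 0.0348), but it had 1 and 0 UMIs in tuft-like cells and turned to 0.55 ± 0.15 (adjusted p = 0.00582) without them. It was at -0.74 in mouse 1 alone and at -2.51 in mouse 2 alone.

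Of 9 tested subunits of protein phosphatase 2A, which opposes the kinases, 3 were lower in the epithelial mean (median -0.08). The rest did not pass, and 31.4% of all genes were called lower. The direction of this list turned to 5 higher and 1 lower without tuft-like cells (median 0.32), and without TMM factors 2 were higher and the rest did not pass (median 0.50). Ppp2r5a was lower at -0.94 ± 0.19 (adjusted p = 0.000683) and at -0.71 ± 0.17 without tuft-like cells, with -0.70 in mouse 1 alone and -1.58 in mouse 2 alone, and at -0.37 without TMM factors (adjusted p = 0.0926). Ppp2r5c, at -0.56 ± 0.20 (adjusted p = 0.0347), and Ppp2r5e, at -3.54 ± 0.88 (adjusted p = 0.00420), did not pass without tuft-like cells (0.12 and -0.09). Between TA-like and enterocyte-like cells Ppp2r1b was higher at 2.03 ± 0.44 (adjusted p = 0.00246), from 3.50 and 1.53 CPM to 14.7 and 25.1 CPM. Ppp2r5c (-1.51 ± 0.28, adjusted p = 0.000700) and Ppp2r5b (-1.92 ± 0.55, adjusted p = 0.0127) were lower in TA-like cells. In mouse 1 and mouse 2 alone Ppp2r1b was at 1.55 and 3.53 and Ppp2r5b at -1.67 and -2.91. In this comparison the list had 1 gene higher and 2 lower (median -0.25), and 3 higher and 1 lower without TMM factors (median 0.21), where Ppp2r5b no longer passed (adjusted p = 0.0579). Between enterocyte-like and T-cell- or ILC-like cells it had 4 higher and 2 lower (median 0.23), and 2 higher and 4 lower without TMM factors (median -0.38).

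Of 9 tested genes among 14 Wnt receptor and Dishevelled genes, 6 were higher and 2 lower in the epithelial mean (median 1.70). Of all genes, 15.8% were called higher and 31.4% lower. Lrp5, a Wnt co-receptor, was higher at 2.47 ± 0.73 (adjusted p = 0.0122) and Fzd7, a Wnt receptor of intestinal stem cells, at 2.49 ± 0.86 (adjusted p = 0.0288). Both rest on few UMIs, at most 17 for Lrp5 and 6 for Fzd7 in any epithelial sum, and on 0 UMIs in the B-cell-like sums, so these fitted values depend on the prior count. In mouse 1 alone Fzd7 turned to -0.19 (1.43 in mouse 2 alone), and in mouse 2 alone Lrp5 turned to -0.06 (2.22 in mouse 1 alone). Macrophage- or monocyte-like cells had more of Lrp5 (16.6 and 19.8 CPM) than enterocyte-like cells (3.97 and 3.07 CPM). They also had more of Fzd7 (6.05 and 12.8 CPM) than enterocyte-like (0.701 and 0 CPM) and TA-like cells (3.39 and 5.39 CPM). Fzd7 did not pass without tuft-like cells (1.55 ± 0.89, adjusted p = 0.143). Dvl2, a Dishevelled gene, had 1 and 0 UMIs in enterocyte-like cells, 18 and 5 UMIs in TA-like cells (10.2 and 8.98 CPM) and 19.6 and 25.5 CPM in T-cell- or ILC-like cells. It was lower in the epithelial mean, and TA-like cells exceeded enterocyte-like cells (adjusted p = 0.000162 and 0.000182), where it was the only gene of the list called (median 0.06). Between enterocyte-like and T-cell- or ILC-like cells the list had 3 higher and 2 lower (median 0.27), whereas without TMM factors 3 were lower and the rest did not pass (median -0.37).

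Of 11 tested genes among 13 β-catenin partners at junctions and in the nucleus, 6 were higher and 2 lower in the epithelial mean (median 1.40). These counts stand beside 15.8% and 31.4% of all genes. The catenins Ctnnd1 (5.45 ± 0.25, adjusted p = 9.65e-10) and Ctnna1 (2.63 ± 0.19, adjusted p = 5.53e-08), which act with cadherins at junctions, were higher like Ctnnb1. Tle1, a co-repressor that binds TCF factors, was higher by 2.91 ± 0.46 (adjusted p = 0.000108). In TA-like against enterocyte-like cells 4 genes of this list were lower and the rest did not pass (median -0.45). These included Ctnnd1 (-1.23 ± 0.26, adjusted p = 0.00169), Ctnna1 (-1.19 ± 0.28, adjusted p = 0.00366) and Bcl9, a co-activator of β-catenin (-1.39 ± 0.33, adjusted p = 0.00376). Without TMM factors the list had 1 higher and 2 lower (median 0.05), and Bcl9 did not pass (adjusted p = 0.0513). Enterocyte-like against T-cell- or ILC-like cells gave 5 higher and 2 lower (median 0.76), and 5 higher and 4 lower without TMM factors (median 0.11).

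Classes differ in depth, which sets the share of cells with at least 1 UMI of a gene, so every cell was also thinned to 1000 UMIs and shallower cells were left out. Thinning used 566 and 125 enterocyte-like cells and 3039 and 5208 T-cell- or ILC-like cells. A Ctnnb1 UMI was found in 20% and 34.4% of thinned enterocyte-like cells, against 7.90% and 11% of T-cell- or ILC-like cells, and the exact binomial intervals did not overlap in either mouse. The shares with all UMIs were 65.5% and 67.9% against 23.6% and 26.8%. For Csnk1a1 the thinned shares were 38.9% and 33.6% against 27.3% and 30.2%, with separate intervals in mouse 1 only. Btrc was seen in 0.707% (4 of 566) and 0 of 125 enterocyte-like cells, where 0 allows up to 2.40%, and in 2.86% and 2.32% of T-cell- or ILC-like cells. Ctnnb1 and Csnk1a1 were the only members with a higher thinned share in enterocyte-like than in T-cell- or ILC-like cells in both mice. With all UMIs, 4 of the 8 met that condition. The share of all genes that met it was not counted, so these counts are no result about the members.

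Gsk3b was found in 18.7% and 22.3% of thinned T-cell- or ILC-like cells against 13.8% and 17.6% of enterocyte-like cells, with separate intervals in mouse 1 only. With all UMIs the shares were 48.6% and 46.7% against 48.6% and 41.4%, so the difference in mouse 1 was seen at equal depth alone. Apc was found in 7.77% and 3.20% of thinned enterocyte-like and 4.90% and 5.11% of T-cell- or ILC-like cells, opposite in direction in the 2 mice. In TA-like cells Apc was seen in 50.9% and 53.3% of cells with all UMIs but in 5.17% and 10.0% after thinning, with intervals up to 10.9% and 26.5%. Plasma-cell-like cells fell in the same way, for Apc from 16.7% and 17.6% to 1.14% and 1.32%. No class is known to lack these broadly expressed genes, so no class gives a background share for them.

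**Figure D4:**
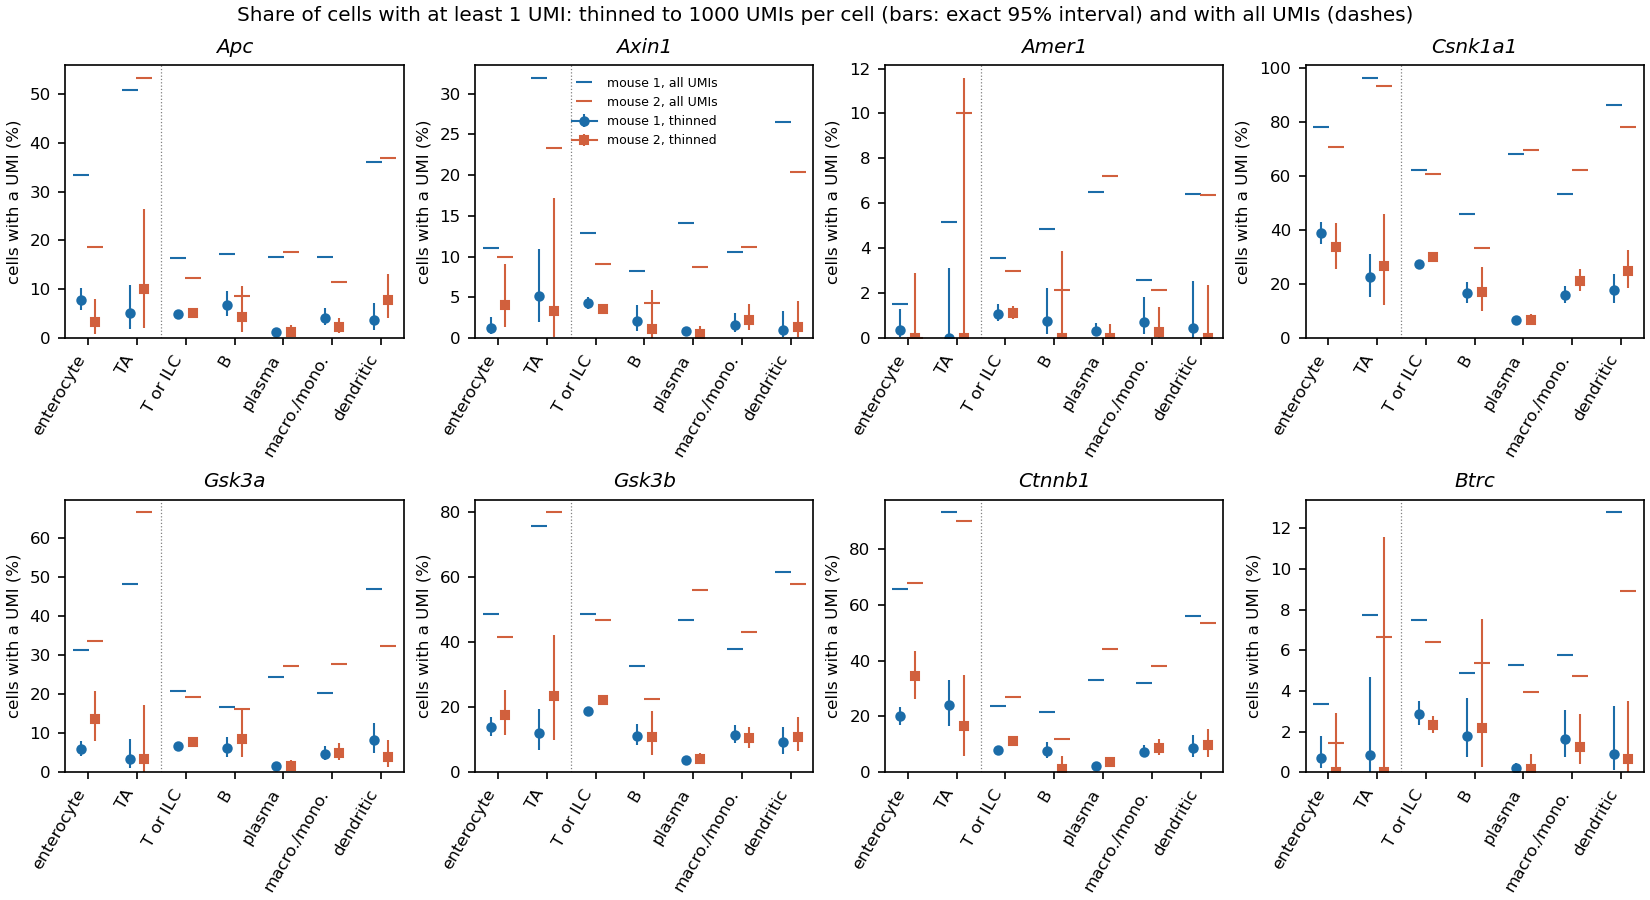
Share of cells with at least 1 UMI of each gene (percent) by class, after thinning each cell to 1000 UMIs (points with exact binomial 95% intervals) and with all UMIs (dashes), for mouse 1 and mouse 2; tuft-like cells are not drawn. Thinning lowers the shares in deep classes such as TA-like and plasma-cell-like cells. It leaves Ctnnb1 higher in enterocyte-like cells (20% and 34.4%) than in T-cell- or ILC-like cells (7.90% and 11%).

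Some classes were mixtures in which the members varied between clusters of the same class, and these values are descriptions without a test. Within dendritic-cell-like cells, a cluster led by Siglech, a plasmacytoid dendritic cell gene, had 97.0 and 114 CPM of Apc, and a cluster led by Ccl17 had 21.8 and 19.2 CPM. Btrc followed the same order, at 21.4 and 15.4 CPM against 5.94 and 4.51 CPM. The Siglech cluster thus had more Apc than the enterocyte-like and TA-like classes as wholes. Tuft-like cells and the Krt20 cluster of enterocyte-like cells, given below, overlapped it. The Siglech and Ccl17 clusters did not overlap for either gene. Among macrophage- or monocyte-like cells, those led by C1q genes had 48.4 and 45.2 CPM of Apc and those led by Chil3 had 32.8 and 12.6 CPM. A cluster of T-cell- or ILC-like cells with Foxp3 and Icos among its leading genes had 20.4 and 31.3 CPM of Axin2, above a cluster led by killer-cell receptor genes such as Klra5, with 5.75 and 6.07 CPM.

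Within enterocyte-like cells the cluster led by Krt20, a gene of mature villus cells, had 701 and 708 CPM of Csnk1a1. The cluster led by Prap1 and Apoa1 had 430 and 542 CPM, that led by Fabp1, with Leap2 among its leading genes, 399 and 404 CPM, and that led by Gsta1 340 and 288 CPM. Apc in the Krt20 cluster stood at 138 and 84.5 CPM and Ctnnb1 at 331 and 486 CPM, from 25 and 8 and from 60 and 46 UMIs. The Krt20 cells were shallow, with median totals of 1480.5 and 1535 UMIs.

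**Figure D5:**
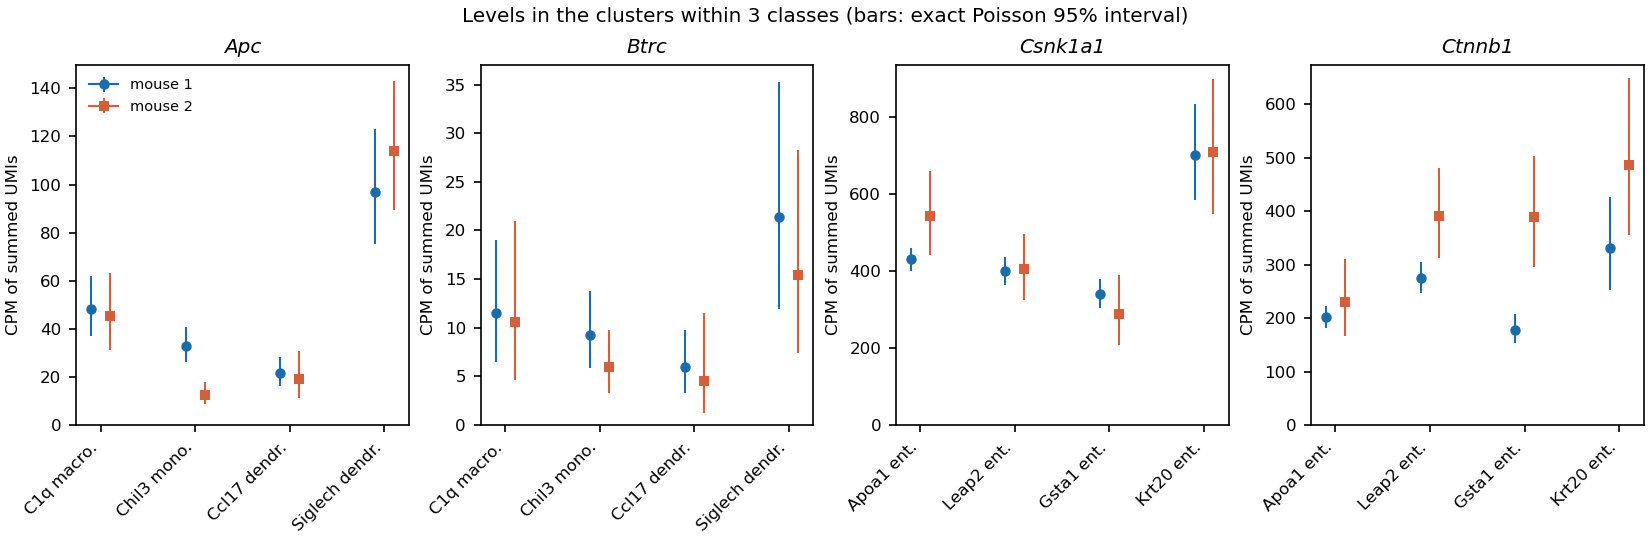
Levels of Apc and Btrc in the clusters of macrophage- or monocyte-like and dendritic-cell-like cells, and of Csnk1a1 and Ctnnb1 in the clusters of enterocyte-like cells, in CPM of summed UMIs for mouse 1 (circles) and mouse 2 (squares) with exact Poisson 95% intervals. Apc is highest in the Siglech cluster, at 97.0 and 114 CPM, and Csnk1a1 in the Krt20 cluster, at 701 and 708 CPM.

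Lastly, the genes whose pattern over the 8 class means was most like that of each member were listed, among 8557 tested genes with a mean of at least 10 CPM. Likeness was the Pearson correlation of log2(CPM + 1) over 8 points that share the libraries, plasma-cell-like dilution and the thin tuft-like sums, and it is given as a description. Ctnnb1 was most like Aspscr1 (r = 0.994), Stk16 and Wwp1, and Csnk1a1 most like Atxn7l3b (r = 0.994), Dnaja1 and Zfp91. Apc was most like Ap1ar (r = 0.987), Cnot7 and Spred2, Axin1 most like Pde6d (r = 0.992), Zbtb6 and Rnf6, and Amer1 most like Dffb (r = 0.995), Clk2 and 2810403A07Rik. For the kinases of the GSK3 pair they were Fbxw5 (r = 0.985), Mitd1 and Trappc10 for Gsk3b, and Pyroxd1 (r = 0.982), Ino80b and Frmd8 for Gsk3a. Btrc was most like Ankrd11 (r = 0.998), Cant1 and Gpatch8. No member was among the 3 genes most like another member. Between members, the same measure was highest for Axin1 and Gsk3b (r = 0.951) and lowest for Gsk3a and Amer1 (r = -0.50).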

How the data were processed

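The authors made raw UMI counts per gene and barcode with Cell Ranger 6.1.2 on mm10 and deposited them without normalization; the annotation release is not given in the sources used here. The filters of the study (over 100 genes, over 400 UMIs, under 5% mitochondrial and under 10% haemoglobin UMIs, genes in at least 3 cells) and its RPCA integration were followed. Seurat 5.3.0 (R 4.3.3), 2000 features without 66 list genes, 30 dimensions, resolution 0.8 and a second integration of epithelial clusters (k.weight 50) were choices made here. A cluster was named when at least 40% and at least 3 of the markers of a class were seen in 10% of its cells at a log2 fold of 1 or more; clusters with low UMIs or markers of another class stayed unnamed. Scrublet (scanpy 1.11.5) called 1 and 0 cells as doublets and so did not work here; removing the 8% with the highest scores was an alternative.

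UMIs were summed per mouse and class, where a class had 20 or more cells per mouse, and tested with edgeR 4.0.16 (glmQLFTest, TMM, filterByExpr; residual degrees of freedom 8, common dispersion 0.0567). DESeq2 1.42.0 was an alternative. The test was also run on simulated counts, with independent sums and most genes at the same mean in every class. Those counts lacked the shared mice and the large class differences of the data, so no conclusion is drawn from that run. Classes of the same number come from the same mouse and library, so sums are paired by design; their deviations from class means correlated at 0.0234 to 0.579 over 28 class pairs (median 0.160). Main fits had no block, and the mouse as a block was an alternative. Levels have exact Poisson and shares exact binomial (Clopper-Pearson) 95% intervals, which cover counting error only; a count of 0 was bounded at 3 UMIs. Thinning drew 1000 UMIs per cell once with a fixed seed. With 2 mice, 1 library each, p-values measure the spread between these libraries.

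Named genes were the 8 members, all tested paralogues, the 3 genes of each other list with the largest called change in 2 comparisons, and the 3 genes most like each member (log2 of CPM + 1, mean of at least 10 CPM). Members and lists were chosen with earlier results of these data known. Gene positions are those of GENCODE on GRCm38 (mm10). On the same strand Ctnnb1 overlaps Mir7090 and Gsk3b overlaps Gm25617, so reads there could be split, while Csnk1a1 and Amer1 overlap no other gene. Figures were drawn with matplotlib 3.10.9; numpy 2.4.6 and scipy 1.17.1 were used in Python 3.11.15.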

Additional observations from a re-analysis of the deposited data

Results flagged for a closer look

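UMIs of the 8 genes were also counted in barcodes and cells outside the comparisons. The 1704 barcodes of mouse 1 removed by the filters held 1417 UMIs of the 8 genes, and the 1843 removed barcodes of mouse 2 held 2417. Their levels differed between the mice, for Csnk1a1 126 CPM in mouse 1 and 294 CPM in mouse 2, and for Gsk3b 67.2 and 183 CPM. The acinar-like cells, seen in mouse 1 only, held 203 UMIs of the 8 genes, among them 82 of Csnk1a1 at 49.7 CPM. Cells of clusters that met no class rule held 1925 UMIs in mouse 1 and 1253 in mouse 2. These signals were listed because they lie in data that no comparison used and exceed what a count of 0 allows; no control samples were analysed here to set them against.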

How the results depend on the processing

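With 2 mice and classes of few epithelial cells, the counts of members called moved with the settings, and except where stated the cause was not tested. Over all alternatives, 421 values of members kept their direction and, where there was a test, their side of the threshold. Among them 33 values of mouse 1 alone and 24 of mouse 2 alone have no test and moved by less than 1 standard error. Another 50 passed the threshold newly, 31 no longer passed, 12 moved with no test and 18 reversed. For the epithelial against the leukocyte mean, the 3 members called became 6 without tuft-like cells, 7 with mitochondrial UMIs under 10%, 7 with no integration and 5 at resolution 0.4, while genes called rose from 47.3% of all genes to 65.6%, 65.7%, 66.2% and 65.5%. Under these settings, in that order, Gsk3a turned to 0.41, 0.50, 0.54 and 0.35, Cul1 to 0.55, 0.67, 0.66 and 0.49 and Ppp2r5c to 0.12, 0.17, 0.23 and 0.049. No cluster was named tuft-like with mitochondrial UMIs under 10%, with no integration or at resolution 0.4. In these settings too, the epithelial mean therefore held TA-like and enterocyte-like cells only. With the cells of each compartment summed Gsk3a was at 0.28, Cul1 at 0.42 and Gsk3b at -0.093. Ppp2r5e turned to 0.013 with mitochondrial UMIs under 10%. Without TMM factors Btrc turned to 0.062, Amer1 to 0.23 and Ppp2r5c to 0.013. Leaving out either mouse, Fzd7 ranged from -0.19 to 1.43 and Lrp5 from -0.063 to 2.22.

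For TA-like against enterocyte-like cells the 2 members called became 4 with the mouse as a replicate block, 0 without TMM factors by edgeR's test, and 1 each with mitochondrial UMIs under 10%, at resolution 0.4, with the list genes kept in the features, with only the compared classes and by DESeq2. Genes called moved from 38.2% of all genes to 43.0% with the block and 38.8% without TMM factors. In the other settings, in that order, they were 35.6%, 36.2%, 37.3%, 49.3% and 24.4%. For enterocyte-like against T-cell- or ILC-like cells Gsk3b, which was not called, turned to 0.019 without immunoglobulin genes, 0.22 at resolution 1.2, 0.21 with the list genes kept in and 0.22 with the shallow enterocyte cluster joined, and ranged from -0.21 to 0.069 leaving out either mouse. Members with a higher share of cells in enterocyte-like cells of both mice were 4 with no thinning against 2. The share of all genes that met this condition was not counted.

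For plasma-cell-like against T-cell- or ILC-like cells the 2 members called became 4 with the block, 4 with mitochondrial UMIs under 10%, 4 with no integration, 4 by DESeq2 and 8 without TMM factors, where genes called rose from 5161 to 10174 and Amer1 (-1.70), Csnk1e (-0.82) and Csnk1g3 (-0.98) reversed. They became 1 without immunoglobulin genes, at resolution 1.2, with the list genes kept in and with the shallow cluster joined. In these settings, in that order, genes called were 42.5%, 40.1%, 40.3% and 41.2% of all genes, against 41.7% in the main fit. The share was 51.0% with the block, 43.8% with mitochondrial UMIs under 10%, 44.2% with no integration and 28.3% by DESeq2. Without TMM factors it was 82.1%, of which nearly all were lower (76.8% of all genes). Ctnnb1 turned to 0.041 at resolution 1.2, 0.063 with the list genes kept in, 0.068 with the shallow cluster joined and 0.034 with only the compared classes. For B-cell-like cells the 2 became 1 without immunoglobulin genes and with only the compared classes. They became 0 by edgeR's test with no filter on low counts, at resolution 1.2, with the list genes kept in and with the shallow cluster joined, where both genes kept an unadjusted p under 0.05, and DESeq2 called 2. Genes called were 16.1% of all genes in the main fit, 16.3% without immunoglobulin genes and 18.7% with only the compared classes. They were 11.4% with no filter, 15.2% at resolution 1.2, 15.3% with the list genes kept in and 11.5% by DESeq2. With the shallow cluster joined, 1988 of 12403 genes were called. Calls of 2, 1 or 0 among 8 members lie near these shares, so these moves are no result about the members. For macrophage- or monocyte-like cells the 3 became 6 without TMM factors and 5 with mitochondrial UMIs under 10%. Genes called there moved from 45.5% of all genes in the main fit to 51.2% and 47.7%. Those called lower moved from 21.9% to 32.3% and 27.4%.

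Among named genes that passed in the main fit, the block changed 1 call not given in the report, Ppp2r5c in the epithelial mean (adjusted p = 0.0532). The block also added calls of paralogues. Those called rose from 4 to 5 for TA-like against enterocyte-like cells, while genes called rose from 38.2% to 43.0% of all genes. Against T-cell- or ILC-like cells they rose from 6 to 7 for both plasma-cell-like and macrophage- or monocyte-like cells. Genes called rose there from 41.7% to 51.0% and from 45.5% to 54.9%. Leaving out the tuft-like cells and joining the shallow cluster were chosen after seeing the data. The planned Paneth-like comparison was not run, since no cluster met that name.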

Other observations

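An unnamed epithelial cluster of 32 and 34 cells had leading genes of several secretory types (Cck and Chgb of enteroendocrine cells, Tff2 and Reg4, Agr2 of goblet cells, Lyz1 and Mmp7 of Paneth cells). In it Ctnnb1 stood at 126 and 322 CPM, Csnk1a1 at 266 and 477 CPM and Apc at 36.0 and 87.3 CPM. Btrc was at 7.20 CPM in mouse 1, from 4 UMIs, and at 57.4 CPM in mouse 2, from 23 UMIs. Axin2 was at 28.8 and 97.3 CPM and Axin1 at 1.80 and 15.0 CPM. These values differed between the mice, so no mean is given. How many of all genes were higher in mouse 2 in these cells was not counted, so the direction is no result about the members.

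An unnamed epithelial cluster of shallow cells, 218 and 39 in number with medians of 724 and 752 UMIs, had enterocyte markers. Ctnnb1 was at 203 and 258 CPM, Csnk1a1 at 323 and 430 CPM and Apc at 53.1 and 86.0 CPM. In mouse 2 Apc rested on 3 UMIs. The effect of joining these cells to the enterocyte-like class is given with the alternatives.

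Neutrophil-like cells, 19 and 9 in number and too few for the fit, had 8 and 2 UMIs of Apc, 8 and 8 of Ctnnb1, 14 and 7 of Csnk1a1 and 0 and 0 of Axin1 and Amer1, which allows up to 42.8 and 79.5 CPM for the last 2 genes.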
